A study of Homo sapiens and Homo sapiens
Mus with 12 samples.

Results

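The proteasome subunit genes are the protein-coding genes whose symbols are PSMA, PSMB, PSMC, PSMD, PSME, PSMF or PSMG followed by a number. Their counts were compared between control and CDH11 knockdown (KD) UM-UC-3 cells, in culture and in xenograft tumors. The choice used gene symbols alone and no measured value. It gave 48 of the 21466 genes with values in the table of cultured cells and 46 of the 26813 human genes in the tumor table. PSMA8 and PSMB11, which encode testis and thymus subunits, had no count in any cultured library and were not listed for the tumors. The filter on low counts kept all other 46 members in cultured cells and 42 in tumors, where PSMA2, PSMA6, PSMC1 and PSMB10 were under it.

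The proteasome degrades proteins that carry ubiquitin chains. Its 20S core is a barrel of stacked rings. The alpha subunits (PSMA genes) form the outer rings and gate the barrel, and the beta subunits (PSMB genes) form the inner rings, where PSMB5, PSMB6 and PSMB7 hold the active sites. The 19S regulatory particle caps the barrel. Its ATPases (PSMC genes) unfold substrates, and its non-ATPase subunits (most PSMD genes) bind ubiquitin and remove it. PSMB8, PSMB9 and PSMB10 replace the 3 constitutive active subunits in the immunoproteasome, which interferon-gamma induces. PSME genes encode alternative activators of the core, PSMG genes its assembly chaperones, and PSMD5, PSMD9 and PSMD10 chaperones of the 19S base. Many subunit genes are known targets of the transcription factor NFE2L1.

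UM-UC-3 is a cell line of advanced bladder cancer. Cells were infected with GIPZ lentivirus carrying GFP and a nonsilencing hairpin (shCtrl) or 1 of 2 hairpins against CDH11 (sh#1 and sh#2), so that every group carried a vector and each hairpin is represented by a single cell population. RNA was sequenced from 3 libraries per group after 24 h of culture, and from 5 tumors per group, taken 4 weeks after subcutaneous injection of the same 3 populations into male BALB/cAJcl-nu/nu mice aged 5 weeks. These nude mice lack mature T cells but keep other immune and stromal cells. Nothing in the labels states that the 3 cultured libraries of a group came from separate cultures, so their p-values measure the spread between these libraries only. The barcode list placed the 5 tumors of each group in 1 library mix per group, so hairpin and mix cannot be told apart in the tumors.

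The totals counted on genes were 2273182 to 2777019 per cultured library and 414849 to 1248977 per tumor. CDH11 itself had 2 to 4 counts per shCtrl library, 0 to 1 in sh#1 and 0 to 2 in sh#2, too few for a fold change in culture. In tumors it had 5 to 32, 1 to 9 and 2 to 14 counts. VIM, a mesenchymal filament gene, had 5189 to 8893 counts in cultured libraries, and the simple-epithelial keratin genes KRT8 and KRT18 had 253 to 345 and 287 to 539. The urothelial regulator gene GATA3 had 2 to 6 counts, and CDH1, UPK2 and KRT5, of epithelium, umbrella cells and basal cells, had at most 1. Members held 0.718% to 0.735% of all counts in shCtrl, 0.777% to 0.786% in sh#1 and 0.628% to 0.642% in sh#2 cells. TMM normalization, which centres each library on most of its genes, used factors of 1.07 to 1.08 in shCtrl, 1.02 to 1.04 in sh#1 and 0.897 to 0.905 in sh#2. When only the total counts were used for scaling, the median log2 fold change of all genes moved to -0.16 for CDH11 KD, -0.08 for sh#1, -0.26 for sh#2 and 0.20 for sh#1 against sh#2. Directions with sh#2 are therefore given relative to the bulk of genes. In these bulk samples, fewer cells of a type and less RNA per cell cannot be told apart.

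A possible common feature of the members was looked for in their promoters. RefSeq promoter windows (GRCh38.p14, 250 bases before the start) were held for 42 of the 48 members, some with several starts, giving 51 windows. The letters TGACNNNGC, the core of the element bound by NFE2L1 and related factors, occurred on either strand in 13 of the 51 windows (25.5%) and in 10.9% of 35116 windows of all genes. CCAAT, the box bound by NF-Y, occurred in 19 member windows (37.3%) and in 32% of all windows. TGACNNNGC was in windows of 13 members, of which 7 passed the test in at least 1 comparison of cultured cells, as did 33 of all 46 members tested. Their matches are printed with 10 bases on each side, on the strand of the gene and with the match in capitals, because these are the 7 genes that passed a test. The PSMC5 match is on the opposite strand, so its capitals read as the reverse complement. No TGACNNNGC match shared bases with a CCAAT match in these windows. A match is a description of the letters and not of binding.
PSMA4: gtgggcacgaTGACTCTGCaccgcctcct
PSMC5: gaccggatctGCTGTGTCAgcgccgccct
PSMD3: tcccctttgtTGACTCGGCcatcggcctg
PSMD12: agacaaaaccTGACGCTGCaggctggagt
PSME1: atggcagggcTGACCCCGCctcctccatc
PSME2: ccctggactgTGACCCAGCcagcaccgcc
PSMG1: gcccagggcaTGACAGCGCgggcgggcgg

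Positions and annotations are those of the printed stretches of 29 bases, and not of the match alone. The PSMD3 stretch (chr17:39980760-39980788, plus strand) and the PSME1 stretch (chr14:24136098-24136126, plus strand) lay in intergenic sequence, as did those of PSMD12 (chr17:67366724-67366752, minus strand) and PSMG1 (chr21:39183616-39183644, minus strand). The PSMA4 stretch (chr15:78540650-78540678, plus strand) overlapped an exon annotated to PSMA4. The PSMC5 stretch (chr17:63827654-63827682, plus strand) overlapped exons annotated to PSMC5 and to its neighbour FTSJ3. The PSME2 stretch (chr14:24146767-24146795, minus strand) overlapped exons of PSME2 and RNF31. None of PSMA7, PSMB1, PSMB6, PSMB7, PSMD4 and PSMG3 was matched to a window, and PSMA1 and PSMA6 had a window without TGACNNNGC.

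In cultured cells, 5 of the 46 members tested were called higher and 0 lower with CDH11 KD (both hairpins, n = 6) against shCtrl (n = 3). These were the core genes PSMA1, PSMA6, PSMB1 and PSMB7 and the ubiquitin receptor gene PSMD4. The 10.9% called higher stood beside 9.13% of all 9859 genes tested, so in this fit of 2 groups the share was near the background. Of all genes, 8.32% were called lower. In a fit of 3 groups, the mean of both hairpins called 14 members higher and 4 lower, beside 1630 and 1661 of all genes. There the share of members called higher was above that of all genes, and the share called lower was under it. At an unadjusted p under 0.05, 16 members moved in either direction. DESeq2 called 5 higher and 0 lower (872 and 707 of all genes), although not PSMD4 (DESeq2 q = 0.0516). The median log2 fold change was 0.08 over the members and 0.00 over all genes. Here and elsewhere q is the p of edgeR's quasi-likelihood test after adjustment over all genes by Benjamini and Hochberg, and its threshold in cultured cells was 0.05. Errors after ± are SE for log2 fold changes and SD for levels. The number called higher depended on the libraries, falling to 2 without shCtrl replicate 1 and to 3 without shCtrl replicate 2 or 3, sh#1 replicate 2 or 3, or sh#2 replicate 2 or 3. Of all genes, 900 were called higher with every library, and 511, 514 and 458 without shCtrl replicate 1, 2 or 3 in turn. They were 935 and 923 without sh#1 replicate 2 or 3, and 777 and 774 without sh#2 replicate 2 or 3. Scaled by total counts, 2 members were called higher and 3 lower (518 and 1370 of all genes).

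The sh#1 and sh#2 populations differed from each other in the members called. Each is a single population, so an effect of the hairpin cannot be told apart from another difference between populations. With sh#1, 17 members rose (37%) and 2 fell (4.35%), beside 11.8% and 10.6% of all genes. DESeq2 called 13 and 0 members, beside 754 and 592 of all genes. With sh#2, 10 rose (21.7%) and 8 fell (17.4%), beside 19.5% and 18.9% of all genes, close to the background in both directions. The direct test of sh#1 against sh#2 called 16 members higher in sh#1 (34.8%, beside 11.2% of all genes) and 2 lower (4.35%, beside 13.5%). DESeq2 called 9 higher and 1 lower, beside 635 and 898 of all genes. Without sh#1 replicate 2 or without sh#2 replicate 2, 10 were called higher (859 and 857 of all genes in turn). The median log2 fold change over members was 0.14 with sh#1 and -0.0009 with sh#2 against shCtrl, and 0.11 for sh#1 against sh#2, while those of all genes were -0.01, -0.01 and 0.01. Scaled by total counts, the calls were 12 higher and 2 lower with sh#1 (859 and 1390 of all genes). They were 2 higher and 22 lower with sh#2 (962 and 3633 of all genes). For sh#1 against sh#2 they were 32 higher and 1 lower (2509 and 637 of all genes). With sh#2 the members had no common direction on TMM scaling. On total counts they moved lower together with all genes (medians: members -0.26, all genes -0.26). The comparisons of the hairpins with shCtrl share the same 3 control libraries.

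**Figure D1:**
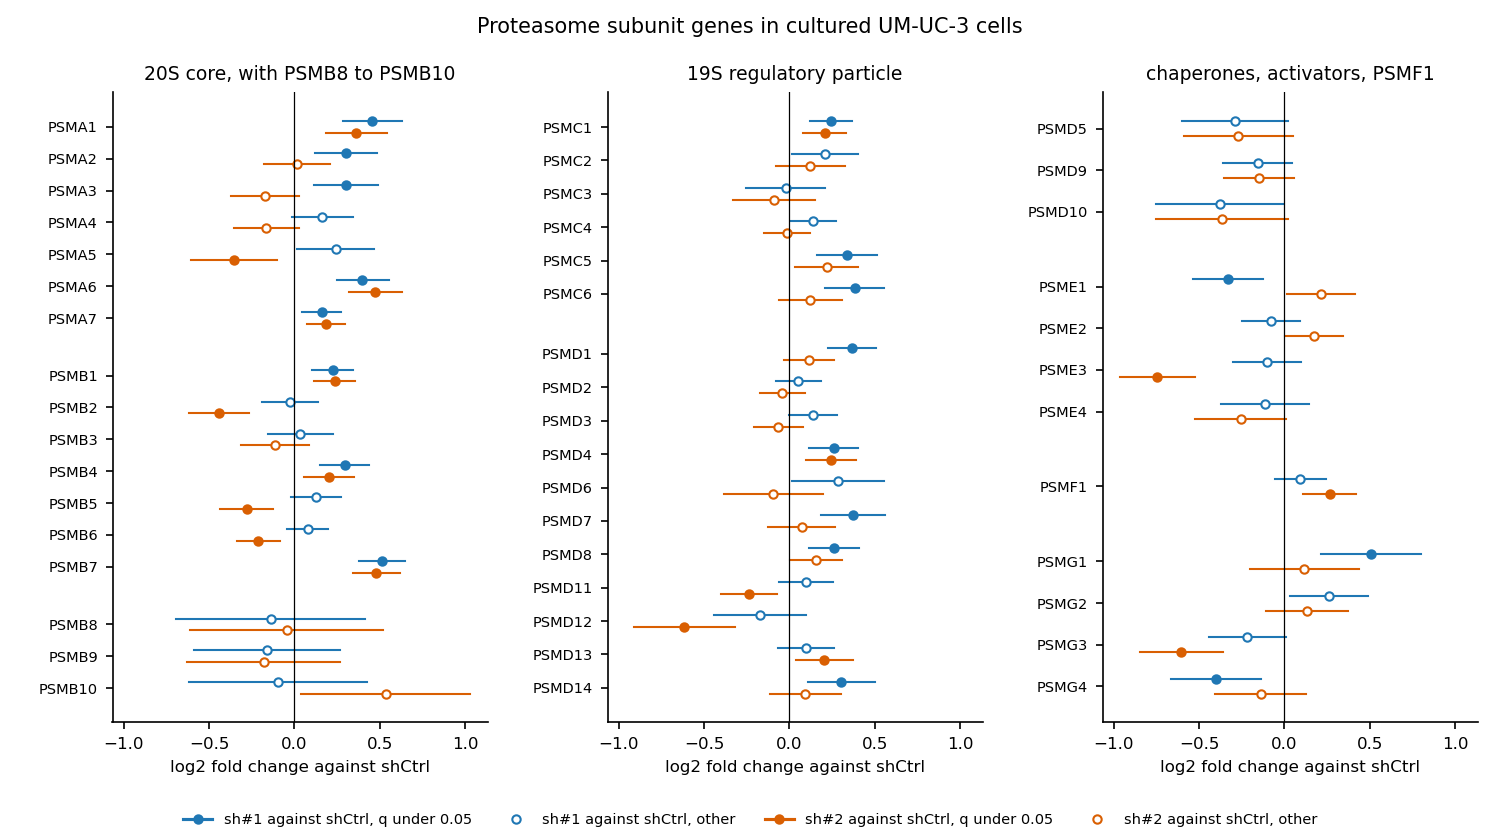
Log2 fold change of each member tested in cultured cells (x axis, with 95% intervals from the standard error) for sh#1 and sh#2 against shCtrl (n = 3 each), on TMM scaling, with filled points at q under 0.05. Most core and 19S points of sh#1 lie right of 0, while sh#2 points lie on both sides, with PSME3 the farthest to the left at -0.74. On total counts the median of sh#2 moves to -0.26, as does that of all genes.

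Among the alpha subunits, which form the outer rings of the core, 5 of 7 rose with sh#1 and 3 with sh#2. PSMA6 (ENSG00000100902, chromosome 14, 35278633 to 35317493, plus strand) had 128, 129 and 137 normalized CPM in shCtrl, 176, 168 and 174 in sh#1 and 182, 174 and 190 in sh#2. Every KD library was above every shCtrl library. Its log2 fold change was 0.44 ± 0.08 (SE) for CDH11 KD (edgeR q = 0.002), and the call held in all 17 alternatives. Among these, adding pseudogene counts to members could not change a culture result, because the cultured counts had 0 pseudogene rows. In comparisons of 2 single groups, leaving out a library of the third group acted only through the shared filter, scaling and spread. PSMA1 (ENSG00000129084, chromosome 11, 14504874 to 14643635, minus strand) had 94.9, 122 and 115.4 normalized CPM in shCtrl, 155, 142 and 159 in sh#1 and 144, 138 and 147 in sh#2. Every KD library was above the controls, of which shCtrl replicate 1 was the lowest, and the hairpins overlapped each other. PSMA1 rose by 0.41 ± 0.10 on the log2 scale (edgeR q = 0.00867). This call was lost without shCtrl replicate 1 (0.31, edgeR q = 0.0738) and on total counts (0.25, edgeR q = 0.145), and q stayed under the threshold in the other 15 alternatives. PSMA7 rose by 0.16 ± 0.06 with sh#1 (lost in 8 of 16 alternatives) and by 0.19 ± 0.06 with sh#2, the latter turning to -0.07 on total counts. PSMA2 and PSMA3 rose with sh#1 only by the test against shCtrl (0.30 each), and both were higher in sh#1 than in sh#2, by 0.29 ± 0.10 and 0.47 ± 0.10. Their sh#1 calls were lost by DESeq2, on total counts and without shCtrl replicate 1, for PSMA3 also without sh#1 replicate 1 or 3, and the PSMA2 difference was lost by DESeq2 and without sh#1 replicate 1 or 2 or sh#2 replicate 2 or 3.

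PSMA5 (ENSG00000143106, chromosome 1, 109399042 to 109426448, minus strand) separated the hairpins most among the alpha genes. It had 58.0, 60.9 and 49.7 normalized CPM in shCtrl, 73.9, 64.1 and 61.4 in sh#1 and 46.9, 42.8 and 41.7 in sh#2, so the control libraries lay between those of the hairpins. PSMA5 fell by 0.36 ± 0.13 with sh#2 (edgeR q = 0.0235, lost by DESeq2 and without shCtrl replicate 1 or 2 or sh#2 replicate 2 or 3), and the difference between the hairpins was 0.60 ± 0.13 (edgeR q = 0.000209), which held in all 16 alternatives. PSMA4 was 0.33 ± 0.10 higher in sh#1 than in sh#2, and neither hairpin passed the test against shCtrl. The PSMA4 difference was lost without sh#1 replicate 3 or sh#2 replicate 2.

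The 3 catalytic subunits did not move together. PSMB7, the trypsin-like subunit (ENSG00000136930, chromosome 9, 124353465 to 124415444, minus strand), had 202, 221 and 203 normalized CPM in shCtrl, 281, 309 and 304 in sh#1 and 295, 274 and 304 in sh#2. All 6 KD libraries stood above the 3 controls. It rose by 0.50 ± 0.08 with CDH11 KD, or 1.41-fold (edgeR q = 0.000502), in all 17 alternatives. PSMB5, the chymotrypsin-like subunit, had 180, 208 and 209 normalized CPM in shCtrl, 218, 215 and 219 in sh#1 and 147, 169 and 176 in sh#2. PSMB6, the caspase-like subunit, had 380, 413 and 414 in shCtrl, 441, 420 and 414 in sh#1 and 343, 349 and 351 in sh#2. For both genes the sh#2 libraries were below all others, and the sh#1 libraries were at or above the upper controls. PSMB5 fell by 0.28 ± 0.08 with sh#2 (edgeR q = 0.00382, lost without sh#2 replicate 1) and PSMB6 by 0.21 ± 0.06 (edgeR q = 0.00672). Against sh#2, PSMB5 was 0.41 ± 0.08 and PSMB6 0.29 ± 0.06 higher in sh#1, in all 16 alternatives, while PSMB7 did not pass (0.03, interval -0.10 to 0.17). The log2 ratio of PSMB7 to PSMB5 lay between -0.04 and 0.17 in shCtrl, between 0.37 and 0.52 in sh#1 and between 0.70 and 1 in sh#2 libraries.

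Other beta subunits have structural roles. PSMB2 had 138, 135 and 129 normalized CPM in shCtrl, 139, 128 and 129 in sh#1 and 88.3, 101 and 107 in sh#2. Only the sh#2 libraries stood apart, below the other 6. PSMB2 fell by 0.44 ± 0.09 with sh#2 (edgeR q = 7.14e-05) and was 0.42 ± 0.09 higher in sh#1 than in sh#2, both in all 16 alternatives. PSMB1 rose by 0.23 ± 0.07 for CDH11 KD at a q of 0.0462 by edgeR, which was lost in 13 of 17 alternatives, including each leave-out of a control library. By itself sh#1 gave PSMB1 0.22 ± 0.06 and PSMB4 0.29 ± 0.07, both past the test, and sh#2 gave 0.24 ± 0.06 and 0.20 ± 0.07, which turned to -0.02 and -0.06 on total counts. The PSMB4 call with sh#2 was also lost by DESeq2, under upper quartile scaling and without shCtrl replicate 1 or 3 or sh#2 replicate 3. PSMB3 passed no test.

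The inducible subunits were scarce in culture, and none passed a test. PSMB8 had 5.49, 12.7 and 11.8 normalized CPM in shCtrl, 6.94, 9.53 and 10.5 in sh#1 and 9.29, 12.9 and 6.79 in sh#2. PSMB9 had 16.9, 12.7 and 14.04 in shCtrl, 13.9, 11.3 and 13.7 in sh#1 and 13.5, 14.8 and 10.2 in sh#2. For PSMB10 the values were 7.45, 9.39 and 10.6 in shCtrl, 9.80, 9.96 and 6.32 in sh#1 and 14.4, 12.9 and 12.6 in sh#2. The groups of PSMB8 and PSMB9 overlapped, while on TMM scaling the sh#2 libraries of PSMB10 were above the rest (0.53 ± 0.25 against shCtrl, edgeR q = 0.0919, from 26 to 31 counts per library). Before scaling they overlapped the controls, which had 19 to 28 counts per library.

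**Figure D2:**
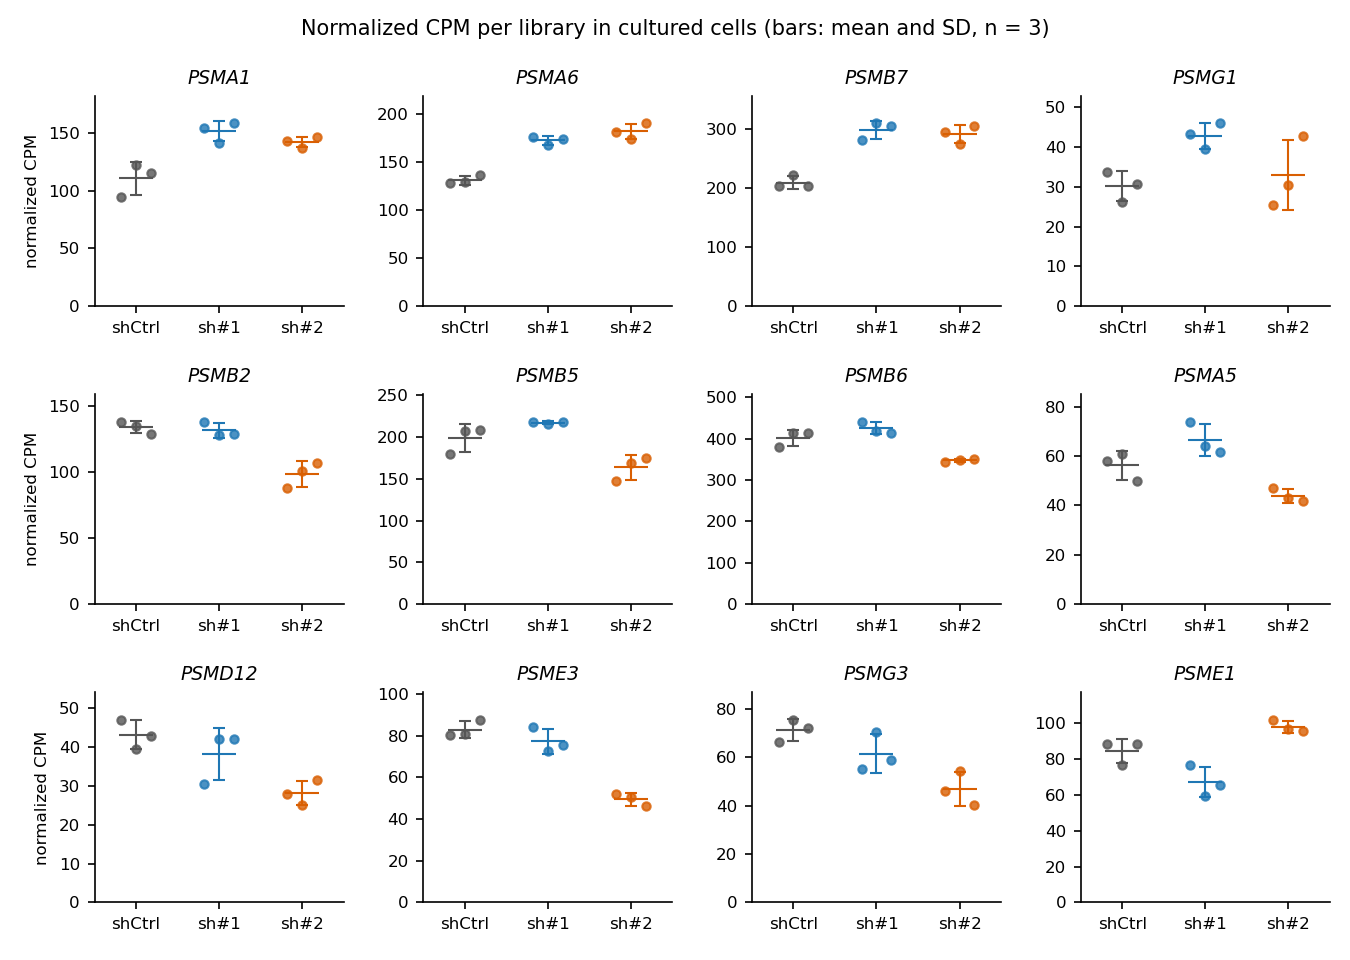
Normalized CPM (y axis, from 0) of 12 members in each cultured library of shCtrl, sh#1 and sh#2, with the mean and SD of 3 libraries. PSMA1, PSMA6 and PSMB7 are higher in both hairpins, PSMB2, PSMB5, PSMB6, PSMA5, PSMD12, PSME3 and PSMG3 are lowest in sh#2, and PSME1 is lowest in sh#1.

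Of the 19S ATPase genes, 3 of 6 rose with sh#1 (PSMC1, PSMC5 and PSMC6, by 0.24 to 0.38) and 1 with sh#2 (PSMC1, 0.21 ± 0.06, which turned to -0.05 on total counts). PSMC6 was 0.26 ± 0.09 higher in sh#1 than in sh#2, a difference lost by DESeq2 and without sh#1 replicate 1 or sh#2 replicate 1 or 3. The call of PSMC5 was lost without sh#1 replicate 2, and that of PSMC1 with sh#2 without shCtrl replicate 3. Of the 11 non-ATPase genes, 5 rose with sh#1, namely the scaffold gene PSMD1 (0.37 ± 0.07), the ubiquitin receptor gene PSMD4 (0.26 ± 0.07), the lid genes PSMD7 (0.37 ± 0.10) and PSMD8 (0.26 ± 0.08) and the deubiquitinase gene PSMD14 (0.30 ± 0.10). With sh#2, PSMD4 (0.24 ± 0.08) and PSMD13 (0.21 ± 0.08) rose, both turning to -0.01 and -0.05 on total counts, and PSMD11 and PSMD12 fell. Calls with sh#1 were lost for PSMD4 without shCtrl replicate 1 or sh#1 replicate 3, and for PSMD8 and PSMD14 on total counts and without shCtrl replicate 3 or sh#1 replicate 2, for PSMD14 also by DESeq2. With sh#2 that of PSMD4 was lost without shCtrl replicate 1 and that of PSMD13 by DESeq2 and without any 1 control library or sh#2 replicate 1 or 2. In the pooled comparison PSMD4 passed narrowly (0.25 ± 0.08, edgeR q = 0.0496), and 14 of 17 alternatives lost it.

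PSMD12, a lid subunit (ENSG00000197170, chromosome 17, 67337916 to 67366605, minus strand), had the largest fall with sh#2 among 19S genes. It had 47.1, 39.6 and 42.9 normalized CPM in shCtrl, 30.6, 42.0 and 42.1 in sh#1 and 27.9, 25.2 and 31.5 in sh#2. The sh#2 libraries were below the controls, while sh#1 replicate 1 lay among the sh#2 values. PSMD12 fell by 0.62 ± 0.15 with sh#2 (edgeR q = 0.000913), and the hairpins differed by 0.44 ± 0.15 (edgeR q = 0.029), a call lost by DESeq2 and without sh#1 replicate 2 or 3 or sh#2 replicate 1 or 2. PSMD11 fell by 0.24 ± 0.08 with sh#2 (lost by DESeq2 and without shCtrl replicate 1 or 3 or sh#2 replicate 1 or 2) and was 0.33 ± 0.08 higher in sh#1. PSMD1, PSMD3, PSMD6 and PSMD7 were also higher in sh#1 than in sh#2, by 0.20 to 0.38. The PSMD1 difference was lost without sh#1 replicate 3, that of PSMD7 without sh#1 replicate 2 or 3 or sh#2 replicate 2, that of PSMD6 without replicate 1 or 2 of either hairpin, and that of PSMD3 without sh#1 replicate 1 or 2 or sh#2 replicate 2 or 3. DESeq2 called PSMD1 alone among these 4.

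Of the activator genes, PSME3 fell with sh#2 and PSME1 with sh#1. PSME3 encodes a nuclear activator of the core (ENSG00000131467, chromosome 17, 42824385 to 42843760, plus strand), and had 80.4, 80.9 and 87.7 normalized CPM in shCtrl, 84.1, 72.7 and 75.4 in sh#1 and 52.0, 50.5 and 46.1 in sh#2. The sh#2 libraries were far below the other 6, at 59.7% of the shCtrl mean. PSME3 fell by 0.74 ± 0.11 with sh#2 (edgeR q = 3.21e-07) and was 0.64 ± 0.11 higher in sh#1 than in sh#2 (edgeR q = 1.57e-05), in all 16 alternatives. PSME1 and PSME2, close together on chromosome 14, encode the 2 chains of the interferon-inducible activator. PSME1 had 88.2, 76.8 and 88.1 normalized CPM in shCtrl, 76.4, 59.3 and 65.6 in sh#1 and 102, 96.6 and 95.6 in sh#2. On TMM scaling sh#1 was lowest and sh#2 highest without overlap, although the lowest shCtrl library (76.8) and the highest sh#1 library (76.4) nearly met. Before scaling, PSME1 had 197 to 219 counts per library in sh#2, within the 188 to 232 of shCtrl. Its rise with sh#2 over shCtrl did not pass the test. PSME1 was 0.55 ± 0.11 lower in sh#1 than in sh#2 (edgeR q = 6.46e-05, in all 16 alternatives) and PSME2 0.25 ± 0.09 lower (edgeR q = 0.0275, lost by DESeq2, on total counts and without sh#1 replicate 1 or any 1 sh#2 library). Against shCtrl, PSME1 fell with sh#1 (-0.33 ± 0.10), which was lost by DESeq2 and without shCtrl replicate 1 or 3 or sh#1 replicate 2 or 3. The inhibitor gene PSMF1 rose by 0.26 ± 0.08 with sh#2, with 0.01 on total counts.

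Among the core assembly chaperones, PSMG1 and PSMG3 belong to different dimers that act in turn. PSMG1 had 33.7, 26.1 and 30.7 normalized CPM in shCtrl, 43.3, 39.4 and 46.0 in sh#1 and 25.6, 30.5 and 42.7 in sh#2, so that sh#1 was above the controls and sh#2 was spread across both. It rose by 0.51 ± 0.15 with sh#1 (edgeR q = 0.0094, lost by DESeq2 and without shCtrl replicate 2 or sh#1 replicate 3). PSMG3 had 66.3, 75.6 and 72.1 in shCtrl, 55.1, 70.6 and 59.0 in sh#1 and 46.0, 54.3 and 40.3 in sh#2, where the sh#2 values were below all others. It fell by 0.60 ± 0.12 with sh#2 (edgeR q = 8.33e-05) and was 0.39 ± 0.13 higher in sh#1, a difference lost by DESeq2 and without sh#1 replicate 2 or sh#2 replicate 1 or 3. PSMG4, the partner of PSMG3, fell by 0.40 ± 0.14 with sh#1 (lost by DESeq2 and without shCtrl replicate 2 or sh#1 replicate 1 or 3). The 3 chaperone genes of the 19S base passed no test, with medians of -0.29 and -0.27 for sh#1 and sh#2.

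Core and regulatory particle genes were then set against each other. In culture the median log2 fold change was 0.13 for the 14 core genes and 0.17 for the 17 genes of the 19S particle with CDH11 KD, 0.23 and 0.24 with sh#1, and -0.05 and 0.09 with sh#2. On total counts these medians were -0.02 and 0.01, 0.17 and 0.18, and -0.31 and -0.16, so the sign for the core with CDH11 KD and for the 19S particle with sh#2 turned. With sh#1, 8 core and 8 regulatory genes rose and none fell. With sh#2, 6 core genes rose and 4 fell, against 3 and 2 of the 19S particle. The log2 ratio of summed core to summed 19S normalized CPM was 0.32 ± 0.05 (SD, n = 3) in shCtrl, 0.33 ± 0.04 in sh#1 and 0.35 ± 0.04 in sh#2, and the groups overlapped. Leaving out shCtrl replicate 3 moved the core minus 19S difference of medians with sh#2 from -0.15 to -0.02, and leaving out shCtrl replicate 1 moved it to -0.22. In tumors the ratio was 0.56 ± 0.06 (n = 5), 0.56 ± 0.05 and 0.53 ± 0.05, also with overlap, and the highest of the 15 was shCtrl tumor 4 at 0.68. The ratios of culture and tumors come from separate tables and were not tested against each other. They also rest on different genes in effect, because 3 members were almost without counts in tumors. Mean normalized CPM in shCtrl was 345 in culture and 7.19 in tumors for PSMC1, 131 and 11.5 for PSMA6, and 97.5 and 3.74 for PSMA2.

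**Figure D3:**
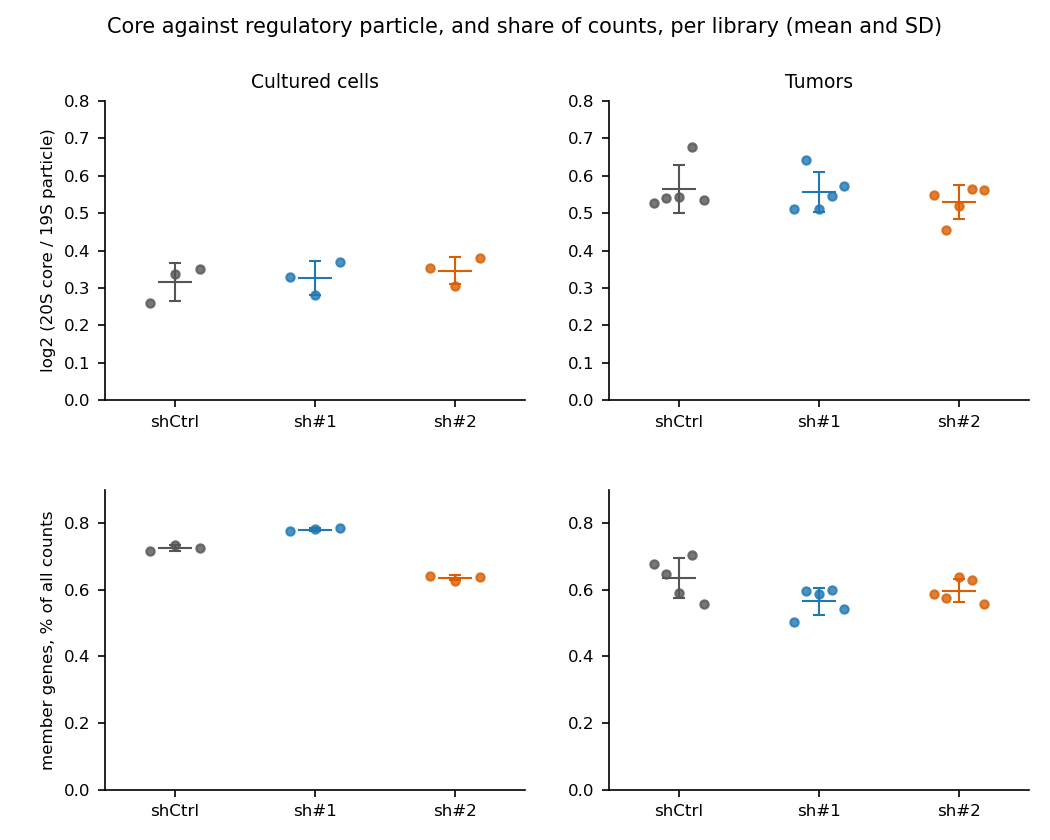
Log2 ratio of summed 20S core to summed 19S regulatory particle CPM (upper panels) and the percent of all counts on member genes (lower panels) per library, with mean and SD, in cultured cells (n = 3 per group) and tumors (n = 5). The ratio overlaps between groups in both systems, while the share of counts in culture separates sh#1 (0.777% to 0.786%), shCtrl (0.718% to 0.735%) and sh#2 (0.628% to 0.642%).

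Genes that work with the proteasome were counted from 3 lists with 30 genes in all. In culture 6 rose and 1 fell with CDH11 KD (20% and 3.33%, beside 9.13% and 8.32% of all genes tested), with a median of 0.14. In the list of transcriptional control, 3 of 7 rose (42.9%). NGLY1, which removes glycans from NFE2L1 and so allows its activation, rose by 1.98 ± 0.44, NFE2L1 by 0.51 ± 0.15 and MAFF, a small partner of such factors, by 2.14 ± 0.12. DDI2, the protease that cleaves NFE2L1, fell by 1.17 ± 0.26 with sh#2 and was 0.73 ± 0.28 higher in sh#1 than in sh#2. NGLY1 was 1.21 ± 0.10 lower in sh#1 than in sh#2. In the list of ubiquitin supply and delivery, the activating enzyme gene UBA6 (0.67 ± 0.16) rose and the segregase gene VCP (-0.50 ± 0.09) fell. Of the 11 partners, TXNL1, a thioredoxin-like protein of the 19S particle, rose (0.39 ± 0.12). With sh#2, 3 of the 11 partners rose, SEM1 (0.16 ± 0.06), ECPAS (0.33 ± 0.11) and TXNL1 (0.51 ± 0.11), and 2 fell. The proteasome-associated enzyme genes UBE3C (-0.99 ± 0.13) and USP14 (-0.53 ± 0.10) fell with sh#2, and both were higher in sh#1, by 0.72 ± 0.13 and 0.41 ± 0.11. Of all 30 genes, 10 rose and 6 fell with sh#2 (33.3% and 20%, beside 19.5% and 18.9% of all genes tested). For sh#1 these were 9 and 2 (30% and 6.67%, beside 11.8% and 10.6%).

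In the tumors, no member passed the threshold of the study (q under 0.1) for CDH11 KD (n = 10) against shCtrl (n = 5). The counts were 0 higher and 0 lower of 42 by edgeR and by DESeq2, with 6 members at an unadjusted p under 0.05, beside 0.697% of 9184 genes called higher and 0.817% called lower. For sh#1 the test called 0 higher and 1 lower (2.38%), beside 0.773% and 0.73% of all genes. For sh#2 it called 0 and 0, with 4 members at an unadjusted p under 0.05 and 0 calls by DESeq2, beside 1.36% and 1.32%. Between the hairpins it called 0 and 0, with 2 at an unadjusted p under 0.05 and 0 by DESeq2, beside 0.642% and 0.544%. The median log2 fold change with CDH11 KD was -0.07 over the members, of which 32 were below 0, and 0.01 over all genes. It was -0.09 for the 12 core genes tested and -0.07 for the 16 tested of the 19S particle. Members with culture calls had other values in tumors, where PSMA1 was at -0.23 ± 0.10, PSMB7 at -0.01 ± 0.11, PSMB2 at -0.16 ± 0.11 and PSME3 at -0.11 ± 0.11 for CDH11 KD. Whether these differ from the values in culture was not tested.

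**Figure D4:**
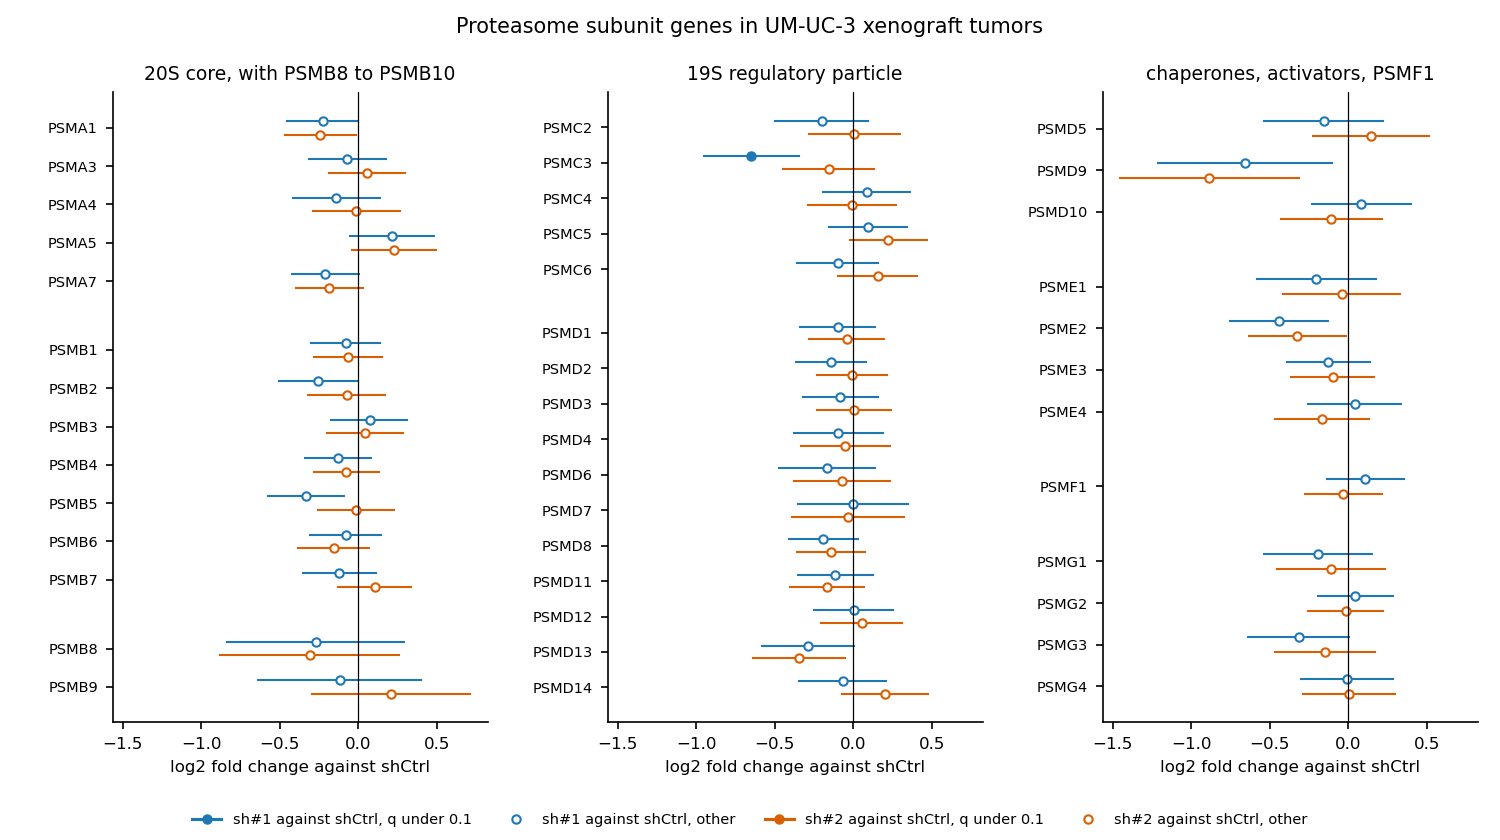
Log2 fold change of the 42 members tested in tumors (x axis, with 95% intervals from the standard error) for sh#1 and sh#2 against shCtrl (n = 5 each), with filled points at q under 0.1. PSMC3 with sh#1 is the single filled point, at -0.65, and most other points lie left of 0.

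PSMC3, an ATPase of the 19S base (ENSG00000165916, chromosome 11, 47418769 to 47426473, minus strand), was the member called with sh#1. It had 98.8, 100, 98.0, 91.3 and 62.9 normalized CPM in the shCtrl tumors, 62.4, 61.9, 59.97, 64.8 and 43.4 in sh#1 and 63.9, 81.4, 94.5, 80.3 and 87.6 in sh#2. In 4 of 5 shCtrl tumors it was above every sh#1 tumor, while shCtrl tumor 5 lay among them. PSMC3 fell by 0.65 ± 0.15 with sh#1 (edgeR q = 0.0238), a call lost without sh#1 tumor 5, and was at -0.16 ± 0.15 with sh#2. The difference between the hairpins did not pass (-0.49 ± 0.16, edgeR q = 0.173). PSMD9, a chaperone of the 19S base, did not pass either (-0.77, edgeR q = 0.127), although its 10 KD tumors (5.59 to 11.05 normalized CPM) were all below the 5 shCtrl tumors (12.3 to 21.0).

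The catalytic subunits passed no test in the tumors. PSMB5 had 193, 202, 166, 202 and 156 normalized CPM in shCtrl, 117, 153, 159, 157 and 137 in sh#1 and 201, 155, 199, 198 and 153 in sh#2. PSMB6 had 304, 314, 294, 307 and 207 in shCtrl, 233, 271, 297, 281 and 265 in sh#1 and 281, 248, 249, 260 and 244 in sh#2. PSMB7 had 264, 246, 229, 243 and 235 in shCtrl, 203, 200, 251, 244 and 216 in sh#1 and 204, 294, 230, 303 and 278 in sh#2. All groups overlapped for each of these genes. The sh#1 tumors had the lowest mean of PSMB5, at 78.8% of that of shCtrl (-0.33 ± 0.12, edgeR q = 0.244), and shCtrl tumor 5 had the lowest PSMB6 of all 15.

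The inducible subunits varied more from tumor to tumor than between groups. PSMB8 (ENSG00000204264, chromosome 6, 32840717 to 32844679, minus strand) had 58.0, 44.4, 43.4, 106 and 52.4 normalized CPM in shCtrl, 27.1, 66.3, 43.4, 64.8 and 44.4 in sh#1 and 30.6, 55.1, 70.2, 33.4 and 59.7 in sh#2. Its neighbour PSMB9 had 35.3, 30.7, 29.0, 58.2 and 25.5 in shCtrl, 18.98, 47.5, 25.9, 38.3 and 31.6 in sh#1 and 33.3, 53.8, 62.7, 26.1 and 31.7 in sh#2. PSMB10 had 0 to 2 counts per tumor. Neither PSMB8 (-0.29, edgeR q = 0.646) nor PSMB9 (0.05, edgeR q = 0.953) passed the test, and the sign for PSMB8 turned without shCtrl tumor 4. PSMB8, PSMB9 and PSMB10 together made up 7.36% to 18.0% of the summed CPM of the 6 active subunits in tumors and 3.16% to 4.86% in cultured libraries, 2 tables normalized separately.

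Relations of PSMB8 with 6 other members across the 15 tumors were chosen after their values were seen. Their q values adjust over these 6 alone and do not cover that choice, so they are descriptive. PSMB8 and PSMB9 went together in these tumors. On the scale of log2(CPM + 1), Pearson's r was 0.785 and Spearman's rho 0.793 (permutation q = 0.00306 and 0.00171 over 6 relations), with r at 0.63 without shCtrl tumor 4 and sh#1 tumor 1, the 2 tumors farthest from the median of PSMB8. PSME1 gave r = 0.728 and rho = 0.804 (permutation q = 0.00591 and 0.00171, r = 0.548 without the same 2). PSME2 did not pass (r = 0.522 and rho = 0.464, permutation q = 0.0937 and 0.168). For PSMB5, PSMB6 and PSMB7, r with PSMB8 was 0.27, 0.181 and 0.161 and rho 0.068, 0.075 and 0.071 (permutation q of 0.493 to 0.812). With each gene centred on its group means, an alternative also chosen after the values were seen, r was 0.861 for PSMB9 and 0.746 for PSME1 (permutation q = 0.00036 and 0.00402). Since each library mix holds 1 group, these are also the values within mixes, pooled over the 3 mixes, and a single mix of 5 tumors is too small for a value of its own. The mouse share of counts also differed among the tumors, from 10.4% to 30.0%, and its part in these relations was not tested. Mouse Psmb8 had 1 to 36 counts per tumor in the separate mouse table.

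**Figure D5:**
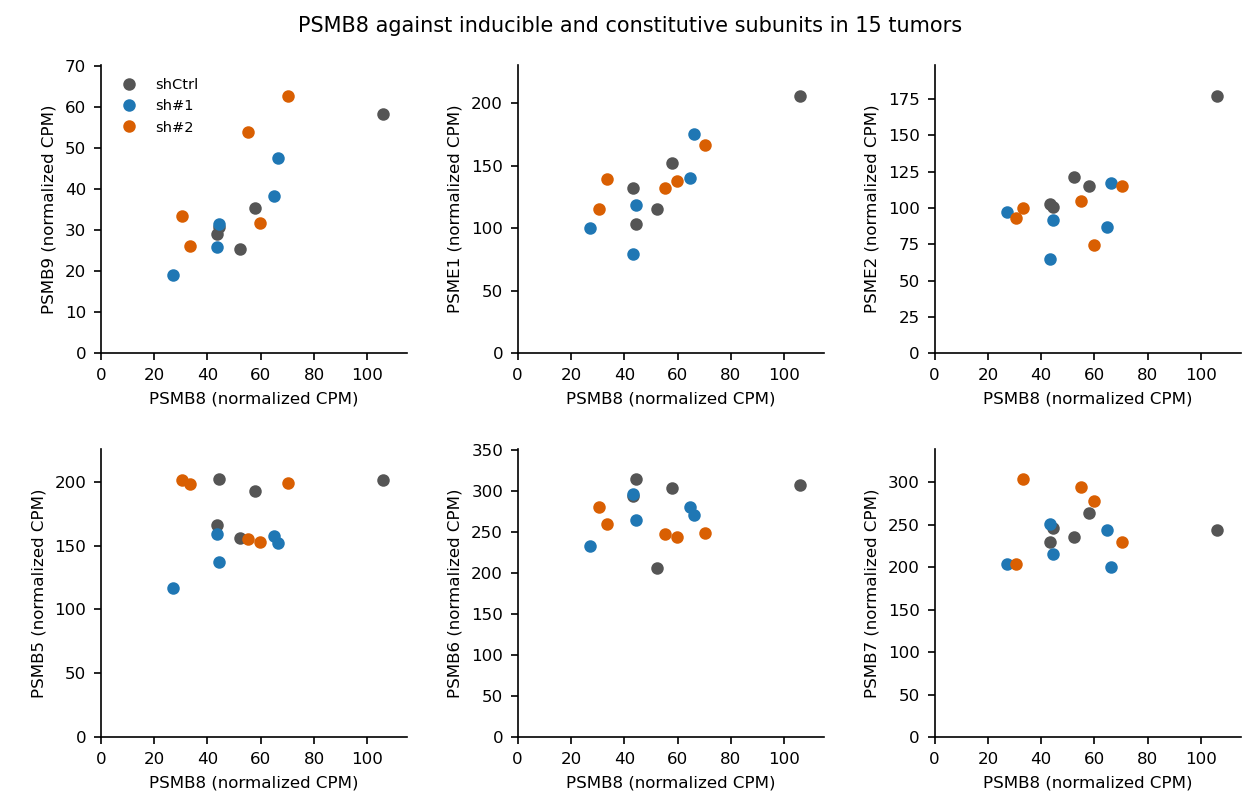
Normalized CPM of PSMB8 (x axis) against PSMB9, PSME1, PSME2, PSMB5, PSMB6 and PSMB7 (y axes) in 15 tumors colored by group, with each point 1 tumor. PSMB9 and PSME1 increase with PSMB8 (r = 0.785 and 0.728), and shCtrl tumor 4 is the point at 106 on the x axis.

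Several abundant members were almost without counts in the tumor table. PSMC1 had 816 to 1174 counts per library in culture and 2 to 12 per tumor, PSMA6 had 315 to 497 and 5 to 16, and PSMA2 had 192 to 337 and 0 to 8. GENCODE v44 annotates 13 pseudogenes named after PSMC1, 4 after PSMA6 and 3 after PSMA2, against 0 for most members, although PSME2 has 6 and kept 1405 counts over the tumors. Pseudogene rows in the tumor table held 28 counts over all 15 tumors. The part that multiple alignment plays was not tested, and these 3 genes have no test in tumors. Mouse Psm genes (46 listed) amounted to 8.06% to 16.8% of the human member counts in 14 tumors and to 37.8% in sh#1 tumor 1, the tumor with the lowest human total.

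Of the same 3 lists of partner genes, 28 of 30 were tested in tumors. For CDH11 KD 0 rose and 1 fell (3.57%, beside 0.817% of all genes called lower). This was UBB, a gene for ubiquitin, at -0.90 ± 0.16 (edgeR q = 0.000861), with -0.85 ± 0.19 for sh#1 and -0.96 ± 0.19 for sh#2. In culture UBB was at 0.03 ± 0.09. SEM1, a small subunit of the 19S lid, fell with sh#2 (-0.40 ± 0.12, edgeR q = 0.0896). UBB and SEM1 were the sh#2 calls (7.14% of the 28, beside 1.32% of all genes called lower). With sh#1 UBB alone was called (3.57%, beside 0.73%). NGLY1, NFE2L1 and MAFF, which rose in culture, were at 0.16, 0.05 and 0.06 in tumors and did not pass.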

How the data were processed

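RNA-seq counts of 9 libraries of cultured UM-UC-3 cells (single reads of 75 bp) and of 15 xenograft tumors were analysed. The authors deposited unnormalized counts of reads per gene, mapped to hg38. The paper's methods name CLC Genomics Workbench and RaNAseq for the cultured cells, and Trim Galore (also in the submitters' processing notes) and HISAT2 for the tumors. The counting program, annotation version and separation of mouse from human reads are not given in the sources used here. In the cultured table, 13 rows with blank values were not analysed here.

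edgeR 4.0.16 (R 4.3.3, limma 3.58.1) tested all genes, using TMM, filterByExpr and a robust quasi-likelihood fit and test, with Benjamini-Hochberg adjustment over all genes tested. CDH11 KD was tested in a fit of 2 groups, each hairpin in a fit of 3. The q thresholds of 0.05 (culture) and 0.1 (tumors) are those of the study, whose added limit of 1 on the absolute log2 fold change in culture was not applied, and no member would have met it. Scripts were tested on simulated counts. Members and lists were chosen with earlier results of these data known. Named were members past the threshold in the pooled comparison or with both hairpins, those that differed between hairpins, and PSMB5 to PSMB10, with values per library for these 6 and the 8 largest changes among called members. PSMA5, PSME1 and other members shown or named beside them, such as PSMD9, and the relations with PSMB8 were chosen after their values were seen. Alternatives were DESeq2 1.42.0, upper quartile scaling, no low-count filter, a minimum of 10 counts per library, each library left out, a replicate block, pseudogenes added, 3 groups for CDH11 KD, wider classes and, in tumors, a mouse covariate. Scaling by total counts and the centred relations were added after seeing the data. Replicate numbers did not pair the libraries (mean correlation of same-numbered deviations 0.023 in culture and -0.004 in tumors). Replicates differed by more than sampling noise (chi-square per degree of freedom of at least 1.3), so each counted once. The values of 1 gene of the lists are not reported here. Low totals in tumors limit members with few counts. Coordinates are from GENCODE v44 on the same build.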

Additional observations from a re-analysis of the deposited data

Results flagged for a closer look

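Dixon's test was applied to 60 sets of 5 tumors. Its threshold is passed by chance in about 1 in 20 independent sets of normally distributed values. The sets examined reuse the same tumors over related genes and ratios, so they are not independent, and an excess over chance was not tested. In 10 of the 60 sets, 1 tumor stood far from the others of its group. Tumor shCtrl 4 did so for PSMB8 (106 normalized CPM, the others 43.4 to 58.0), for PSME2 (177 CPM, the others 100 to 121), for the share of inducible subunits (18.0%, the others 9.19% to 11.7%) and for the log2 ratio of core to 19S genes (0.677, the others 0.526 to 0.543). Tumor shCtrl 5 had low PSMB6 (207 CPM, the others 294 to 314) and PSMC3 (62.9 CPM, the others 91.3 to 100), and sh#1 tumor 5 had the lowest PSMC3 of its group (43.4 CPM, the others 59.97 to 64.8). Tumor sh#1 1 had the lowest total (414849 human counts, the others of its group 895180 to 1011977) and the highest ratio of mouse Psm to human member counts (37.8%, the others 8.06% to 9.55%). PSMB10 in sh#2 tumor 4 (1.04 CPM, the others 0) rests on 1 count.

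PSMA1 had values of opposite sign in the 2 systems. Its log2 fold change with CDH11 KD was 0.41 in culture, where all 6 KD libraries were above the shCtrl mean, and -0.23 in tumors, where all 10 KD tumors were below it. The tumor value did not pass the test (edgeR q = 0.304), the culture call was lost without shCtrl replicate 1 and on total counts, and the difference between the systems was not tested.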

How the results depend on the processing

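In culture the 5 members called higher with CDH11 KD became 3 under upper quartile scaling, without the filter, with at least 10 counts in every library and with the replicate block. Of all genes, these fits called 790, 913, 774 and 648 higher in turn. The 5 members became 2 on total counts and 14 with 3 groups, and the 0 called lower became 3 and 4. The fit of 3 groups, in which the difference between the hairpins leaves the residual, called 1630 of all genes higher and 1661 lower. Total counts called 518 and 1370 of all genes. Leaving out 1 library gave 2 to 5 higher (458 to 970 of all genes) and 0 to 1 lower (424 to 901). The core minus 19S difference of medians then ran from -0.120 to 0.0178 (main value -0.04). With sh#1, the 2 called lower became 0 by DESeq2 (592 of all genes) and 0 to 2 without 1 library (798 to 1065). With sh#2, total counts gave 2 higher and 22 lower (962 and 3633 of all genes). They turned PSMD4 (-0.0145), PSMB4 (-0.0558), PSMB1 (-0.0217), PSMD13 (-0.0522), PSMC1 (-0.0511) and PSMA7 (-0.0713). The core minus 19S difference with sh#2, -0.15, was -0.0735 with wider classes and -0.222 to -0.0248 without 1 library. For sh#1 against sh#2, DESeq2 called 9 higher and 1 lower (635 and 898 of all genes) and total counts 32 and 1 (2509 and 637 of all genes). The core minus 19S difference was -0.0189 with wider classes (main value 0.06). Leaving out 1 library gave 10 to 17 higher (10 without sh#1 replicate 2 or sh#2 replicate 2), 1 to 3 lower and a difference of 0.0004 to 0.0852. Of all genes, these fits called 857 to 1160 higher and 1065 to 1400 lower. Members that did not pass turned sign: PSMB5 (-0.127 to 0.006) and PSMB8 (-0.386 to 0.108) in culture without 1 library, and in tumors PSMB7 (-0.0534 to 0.0202, and 0.0275 with the mouse covariate), PSMB8 (-0.389 to 0.0152) and PSMB9 (-0.0741 to 0.307). In tumors, leaving out 1 library gave 0 to 1 called lower for CDH11 KD (1 without shCtrl tumor 5) with a core minus 19S difference of -0.0837 to -0.0048, and 0 to 1 called lower for sh#1. Of all genes, these fits called 27 to 202 lower for CDH11 KD (202 without shCtrl tumor 5) and 35 to 154 for sh#1. Apart from total counts, 3 groups, wider classes and the fits without 1 library, the causes were not tested. The replicate block moved no other count of members by over 1.5 times. Of 482 alternatives for counts and differences of medians, 431 stayed within 1.5 times or within 1 SD of the main value. The 431 include counts of 0 that stayed 0 and fits without a library outside the comparison. They also include the culture fits with pseudogenes added, which could not move. The number is therefore not a measure of stability.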
